A study of Mus musculus with 4 samples.

Results

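Guanylate-binding proteins (GBPs) and immunity-related GTPases (IRGs) are 2 families of interferon-inducible enzymes that hydrolyse GTP and act inside infected cells. GBPs assemble on bacteria and on the vacuoles that hold parasites, and can open them. Among the IRGs, effectors such as Iigp1 (Irga6) and Tgtp1 (Irgb6) load onto parasite vacuoles, whereas the regulators Irgm1, Irgm2 and Igtp (Irgm3) sit on the cell's own membranes and hold the effectors inactive there. Without interferon most are expressed at low levels. Interferon gamma raises them through gamma-activated sites (GAS) in DNA, and type I interferon raises them through interferon-stimulated response elements (ISREs). Irf1, a transcription factor that interferon gamma induces, binds ISRE-type sites as well.

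The 10 genes described are Gbp2, Gbp3, Gbp7, Gbp6, Gbp8, Iigp1, Tgtp1, Irgm1, Irgm2 and Igtp. They were taken by name, through the RefSeq accession of each probe, and were read by 13 of the 41174 probes on the array. All 10 were among the 25095 genes tested. The RNA came from livers of 8-week-old female CD-1 mice, an outbred stock, and each of 4 arrays compared Cux2 siRNA-treated pools with pools that received a non-specific siRNA. Cux2 encodes a homeobox transcription factor that in mouse liver is far more abundant in females, and the arrays were run to see which transcripts depend on it in female liver. At day 5, replicate 1 combined RNA from 3 treated mice and replicate 2 from 2, and at day 8 each replicate combined 2 treated mice, while the 13 control mice formed 2 pools of 6 or 7, with 6 named in each array's description. The day of tissue collection for the control mice, and the control pool used on a particular array, are not given in the labels. On both days replicate 1 carried the treated pool in Alexa 647 and replicate 2 carried it in Alexa 555, so replicate number, dye orientation and possibly control pool cannot be told apart. No liver without siRNA was analysed here, so a lower level after Cux2 siRNA and a higher level after non-specific siRNA cannot be told apart either. RNA was pooled from whole liver, in which fewer cells of a type and less RNA per cell cannot be told apart.

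In each channel 71.1% to 74.6% of probes exceeded background clearly (the scanner's well-above-background flag), and 0 spots were saturated. Cux2 itself fell, with log2 ratios (Cux2 siRNA over non-specific siRNA) of -1.91 and -1.70 on the day 5 arrays, and -1.07 and -1.20 on those of day 8. Of 12 hepatocyte markers 9 were measured, all well above background in all 8 channel readings, with a median log2 ratio of 0.08 over both days. Their median was 0.25 and 0.40 on the replicate 1 arrays of day 5 and day 8, and -0.26 and -0.30 on the replicate 2 arrays. By the rule given below, 2 of them fell and 1 rose over both days, against 16.3% and 14.8% of all genes. All ratios are on the log2 scale in this direction. Standard errors (SE), 95% intervals and adjusted p-values are from 1 limma fit over the 4 arrays, two-sided and Benjamini-Hochberg adjusted over all genes tested, and a gene "fell" or "rose" where the adjusted p was under 0.05.

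The start regions of these genes are shown first, because the known routes to their induction run through 2 short DNA elements. Whether these elements have a part in the changes given further on was not tested. RefSeq's promoter table (GRCm38.p6, 250 bases before to 50 after each gene start) held Gbp2, Gbp3, Gbp7, Igtp, Irgm1, Irgm2 and Tgtp1, which is 7 of the 10. An ISRE core was searched on both strands as GAAA, 2 bases of any kind and GAAA again, and a GAS core as TTCNNNGAA, which reads the same on both strands. The 50 bases around the first ISRE core of each gene are given 5′ to 3′ on the gene's strand, with ISRE and GAS cores in capitals.
Gbp2, chr3:142620584-142620633, plus strand: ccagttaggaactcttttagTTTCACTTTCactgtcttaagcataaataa
Gbp3, chr3:142559979-142560028, plus strand: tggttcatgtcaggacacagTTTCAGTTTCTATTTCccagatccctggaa
Gbp7, chr3:142530263-142530312, plus strand: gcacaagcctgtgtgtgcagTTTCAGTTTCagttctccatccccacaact
Igtp, chr11:58199502-58199551, plus strand: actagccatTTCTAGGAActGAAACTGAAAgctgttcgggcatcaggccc
Irgm2, chr11:58214893-58214942, plus strand: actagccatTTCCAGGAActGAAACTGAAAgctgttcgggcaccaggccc
Irgm1, chr11:48871421-48871470, minus strand: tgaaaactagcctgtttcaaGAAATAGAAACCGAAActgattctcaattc
Tgtp1, chr11:48992294-48992343, minus strand: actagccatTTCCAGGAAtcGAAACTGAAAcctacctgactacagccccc

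All 7 genes held an ISRE core, against 3.99% of the 27025 genes in the table. The first base of the match nearest to each start lay 24 (Irgm1) to 77 (Tgtp1) bases upstream. Gbp3 and Irgm1 each held 2 overlapping matches, and the second listed start of Gbp3 held none. The form with CT as those 2 bases, on either strand, stood in Gbp3, Gbp7, Igtp, Irgm2 and Tgtp1, which is 5 of 7 genes, against 0.263% of all genes. A GAS core stood in Gbp7, Igtp, Irgm2 and Tgtp1, which is 4 of 7 genes, against 9.55% of all genes. In Igtp, Irgm2 and Tgtp1 the GAS core ended 2 bases before the ISRE core, whereas in Gbp7 the nearer of its 2 GAS cores, upstream of the bases printed, ended 25 bases before it. A match is a stretch of letters and not a measured binding site. The genes were chosen as interferon-inducible, and Igtp and Irgm2 share most of this sequence, so these shares describe the genes and are no independent test.

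**Figure D1:**
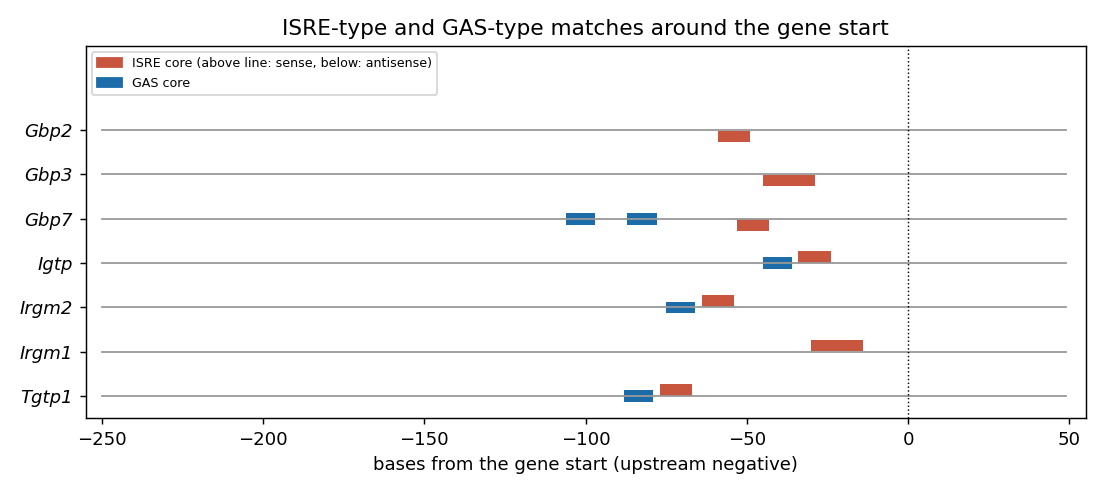
Positions of ISRE cores (red, above the line where the match reads in the gene's direction and below it where it reads against it) and GAS cores (blue) from 250 bases before to 50 bases after the first listed start of 7 genes. Every ISRE core lies within 77 bases upstream of the start, and the overlapping pairs in Gbp3 and Irgm1 are drawn as 1 block.

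Igtp and Irgm2 are neighbours on chromosome 11, and their start regions align over 271 columns with 91.1% identity. Both full windows are printed because the genes share this sequence and differ in the size of their change, given further on.
Igtp, chr11:58199306-58199605, plus strand: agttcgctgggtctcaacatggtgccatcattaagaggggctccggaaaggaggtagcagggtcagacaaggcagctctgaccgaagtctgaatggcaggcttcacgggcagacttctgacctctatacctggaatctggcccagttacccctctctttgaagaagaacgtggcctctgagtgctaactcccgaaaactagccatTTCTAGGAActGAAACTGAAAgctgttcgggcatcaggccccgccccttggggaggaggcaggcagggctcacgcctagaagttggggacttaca
Irgm2, chr11:58214727-58215026, plus strand: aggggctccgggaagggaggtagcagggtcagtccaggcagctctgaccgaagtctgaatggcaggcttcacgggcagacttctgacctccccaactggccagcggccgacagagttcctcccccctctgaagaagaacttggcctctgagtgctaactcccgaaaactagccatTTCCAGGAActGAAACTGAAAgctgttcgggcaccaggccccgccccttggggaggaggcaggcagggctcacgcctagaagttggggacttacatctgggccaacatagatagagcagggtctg

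All 10 GTPases were lower in the livers given Cux2 siRNA than in those given non-specific siRNA, on each of the 4 arrays. At day 5 all 10 fell, where 9.42% of all genes tested fell, and at day 8 all 10 fell, where 8.05% of all genes did. Over both days all 10 fell, against 16.3% of all genes, with mean log2 ratios between -4.45 (Tgtp1) and -2.52 (Irgm1) and a median of -3.82, where the median of all genes was 0.00. For 9 of the 10 the log2 ratio was -2 or lower on all 4 arrays, which was so for 0.291% of all genes, and Irgm1 was the exception. Every treated and control reading of the members was well above background by the scanner's flag, though Gbp6 was dim on the day 8 replicate 2 array, as given below. The members were proposed with earlier results of these data known, so these counts describe them and are no independent test.

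Gbp2, a GBP that coats the vacuoles of Toxoplasma, had a normalised level (log2) of 12.24, 12.26, 12.26 and 12.33 in the treated pools, in the order day 5 replicate 1, day 5 replicate 2, day 8 replicate 1 and day 8 replicate 2. In the control pools on the same arrays its level was 15.61, 16.11, 15.69 and 16.19. After normalisation the 4 treated levels lay within 0.09 of one another and more than 3 log2 units below the lowest control level. The raw treated spot signals were less even, at 6215, 4000, 6274 and 4264 units, lower on both replicate 2 arrays. Its log2 ratios were -3.37, -3.85, -3.44 and -3.86, with a mean of -3.63 for the 4 arrays (SE 0.11, adjusted p = 0.000478), so 8.07% of the control level remained.

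Gbp3, another member of the chromosome 3 cluster, had treated levels of 10.91, 11.08, 10.70 and 11.01, against control levels of 15.09, 15.24, 15.30 and 15.33 (same order of arrays). Its log2 ratios were -4.17, -4.16, -4.60 and -4.33, with the smallest SE of the 10 genes. The mean over both days was -4.31 (SE 0.06, adjusted p = 0.000308), or 19.9-fold lower.

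Gbp7 lies in the same cluster. Its treated levels were 10.45, 10.79, 10.36 and 10.99, against control levels of 13.61, 14.48, 13.74 and 14.55. Its log2 ratios were -3.15, -3.68, -3.38 and -3.56, with a mean of -3.44 (SE 0.10, adjusted p = 0.00044). The 3 chromosome 3 genes thus fell 10.9-fold to 19.9-fold, and their treated and control levels did not overlap.

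Gbp6 and Gbp8 belong to the GBP cluster on chromosome 5. Gbp6 had treated levels of 9.80, 10.18, 9.80 and 8.55, against control levels of 13.46, 14.87, 13.55 and 13.72. Its log2 ratios were -3.66, -4.69, -3.75 and -5.17, with a mean of -4.32 (SE 0.29, adjusted p = 0.00185). The treated spot signal behind the last ratio was 556 units over a local background of 308. That ratio was -4.34 without background subtraction and -5.50 from the scanner's processed signals, so its size moved with the processing. On the day 8 replicate 2 array both of its channels were lower than on the day 5 replicate 2 array, by 1.63 in the treated and 1.15 in the control channel, so the levels moved together and the ratio changed by 0.48. Gbp10, a near-identical relative of Gbp6, had no probe matched by accession here, and whether its RNA adds to the Gbp6 signal was not tested.

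Gbp8 showed the widest spread between arrays. Its treated levels were 12.81, 11.48, 13.16 and 11.81, against control levels of 15.75, 16.76, 15.92 and 16.84. The log2 ratios were -2.94, -5.28, -2.77 and -5.04, so replicate 2 was the lower array on both days. The mean of -4.00 therefore carried an SE of 0.53 (adjusted p = 0.00755). A second Gbp8 probe gave -2.53, -4.06, -2.38 and -4.02, the same order of arrays with smaller falls on each.

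**Figure D2:**
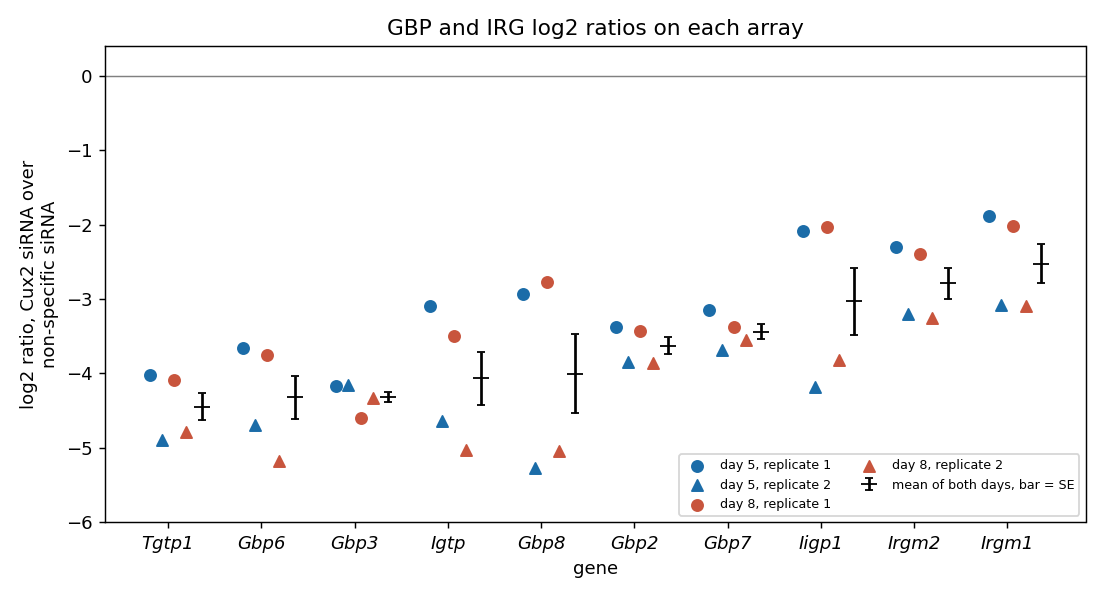
Log2 ratio (Cux2 siRNA over non-specific siRNA) of the 10 genes on each array, with circles for replicate 1 and triangles for replicate 2 of each day, and the mean of both days with its SE in black. All points lie below 0, and for 9 genes, all but Gbp3, the replicate 2 points lie below the replicate 1 points of both days.

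Tgtp1, an effector IRG that loads onto parasite vacuoles, had the lowest mean ratio of the 10 over both days. At day 8 alone Gbp3 (-4.47) and Gbp6 (-4.46) were lower than Tgtp1 (-4.44), and with the mean of all probes of a gene Tgtp1 (-4.19) came after Gbp6 and Gbp3. Its raw spot signals in the treated pools were 5600, 4730, 4653 and 3858 units, against 55023, 255261, 47182 and 175960 units in the control pools, over local backgrounds of 307 to 345 units. After normalisation the treated levels were 12.07, 12.55, 11.80 and 12.22, against control levels of 16.09, 17.44, 15.89 and 17.00. The log2 ratios of -4.02, -4.89, -4.09 and -4.78 averaged -4.45 (SE 0.19, adjusted p = 0.000913), or 4.58% of the control level, and of all genes tested 4 had a lower mean ratio. A second Tgtp1 probe gave -3.33, -4.47, -3.33 and -4.56. The neighbouring copy Tgtp2 is nearly identical and had no probe matched by accession, and whether its RNA adds to the Tgtp1 signal was not tested.

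Iigp1 is the effector IRG Irga6. Its treated levels were 15.42, 14.01, 15.57 and 13.20, against control levels of 17.50, 18.20, 17.61 and 17.02. Its log2 ratios were -2.08, -4.19, -2.04 and -3.82, with replicate 2 the lower array on both days. The mean was -3.03 (SE 0.45, adjusted p = 0.00997), and its adjusted p-values of 0.037 at day 5 and 0.0469 at day 8 were the highest of the 10.

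The 3 regulatory IRGs all fell, with means between -4.07 and -2.52. Irgm1, which is also linked to autophagy, had treated levels of 13.55, 13.46, 13.46 and 13.54, against control levels of 15.44, 16.54, 15.48 and 16.64. After normalisation the treated levels spanned 0.09 and the control levels 1.21. The higher control levels were on the 2 arrays that carried the control pool in Alexa 647. The raw treated spot signals differed with the dye too, at 15230, 8643, 14437 and 9151 units. Those of the control pools were 34469, 136735, 34877 and 138394 units. The log2 ratios of -1.89, -3.08, -2.02 and -3.10 averaged -2.52 (SE 0.26, adjusted p = 0.00434), the smallest fall of the 10, and a second probe differed from the first by less than 0.1 on every array (-1.90, -3.04, -2.04 and -3.03).

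Irgm2 had treated levels of 12.63, 12.86, 12.57 and 12.87, against control levels of 14.92, 16.06, 14.97 and 16.13. Its log2 ratios were -2.30, -3.20, -2.39 and -3.25, with a mean of -2.79 (SE 0.21, adjusted p = 0.00228). Igtp, with the closely matching start region printed above, had treated levels of 14.31, 13.45, 14.01 and 13.12, against control levels of 17.40, 18.08, 17.51 and 18.16. Its log2 ratios of -3.09, -4.64, -3.50 and -5.03 were lower than those of Irgm2 on all 4 arrays and averaged -4.07 (SE 0.36, adjusted p = 0.00302). Igtp thus kept 5.97% of its control level and Irgm2 14.5%, values set side by side with no test between the genes.

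**Figure D3:**
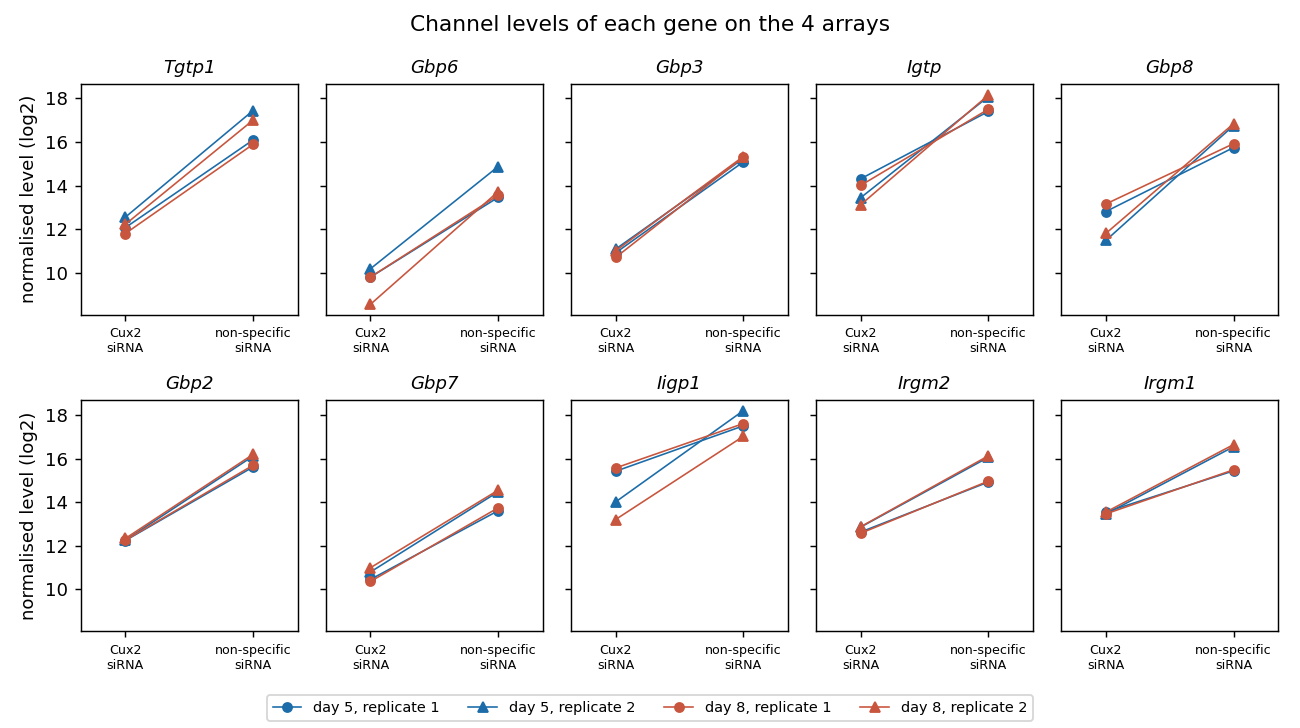
Normalised channel level (log2) of each gene, with the Cux2 siRNA pool at left and the non-specific siRNA pool at right, 1 line per array. Treated and control levels do not overlap for any gene, and Irgm1 and Gbp2 show the narrowest treated levels after normalisation, each within 0.09.

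By mean ratio over both days the order from the largest to the smallest fall was Tgtp1, Gbp6, Gbp3, Igtp, Gbp8, Gbp2, Gbp7, Iigp1, Irgm2 and Irgm1. For all 9 pairs of neighbours in this order the ranges over the 4 arrays overlapped. Of these pairs 2 kept their order on all 4 arrays, Gbp2 before Gbp7 and Irgm2 before Irgm1. Without background subtraction Gbp6 (-3.85) came after Tgtp1, Gbp3, Igtp and Gbp8 (-3.87).

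The ratios of day 8 and day 5 were set side by side, to see whether the fall deepened or lessened between the days. None of the 10 differed between days, and 0 of all genes tested did by limma (0% of 25095; 621 had an unadjusted p under 0.05). The difference of day 8 minus day 5 was -0.40 for Igtp, -0.30 for Gbp3 and -0.29 for Gbp6 at the low end, and 0.21 for Iigp1 and 0.20 for Gbp8 at the high end. For Gbp3 the 95% interval of the difference ran from -0.63 to 0.03, and for Gbp2 from -0.62 to 0.56. For Gbp8 it ran from -2.56 to 2.96 in this fit, which has no term for dye orientation. The width of that interval includes the difference between the dye orientations, described next. Between arrays of the same dye orientation, day 8 minus day 5 for Gbp8 was 0.17 in replicate 1 and 0.24 in replicate 2. Whether the days share control pools is not given in the labels.

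For 9 of the 10 genes, all but Gbp3, the ratio differed more between the dye orientations than between the days. Subtracting the ratio of replicate 1 from that of replicate 2 gave a negative value on both days for 9 of 10 genes, with a mean over the days from -2.30 (Gbp8) and -1.94 (Iigp1) to -0.35 (Gbp7). The median of the 10 was -1.01, against -0.01 over all genes, of which 52.3% were negative. Gbp3 alone was positive, at 0.01 at day 5 and 0.28 at day 8, and with median centring in place of loess it too was negative, at -0.77 and -0.45. The brightest genes leaned the same way: over the 353 genes with a mean intensity of 16 or more (log2) the median difference was -0.44 and 92.9% were negative. Albumin (Alb) had ratios of 0.82 and 0.91 on the replicate 1 arrays of day 5 and day 8 and of -0.77 and -0.64 on the replicate 2 arrays. Of the 10 GTPases Iigp1 was that bright, with a mean intensity of 16.07, and Igtp had 15.76. Over the 1452 genes with a mean intensity of 14 or more the median was -0.03 and 54.5% were negative. Of those genes 4.82% had a mean difference below -1, against 50% of the 10 members. Over the 4706 genes at least as bright as the dimmest of the 10 the median was 0.04. The part of dye, brightness or control pool in this difference was not tested.

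**Figure D4:**
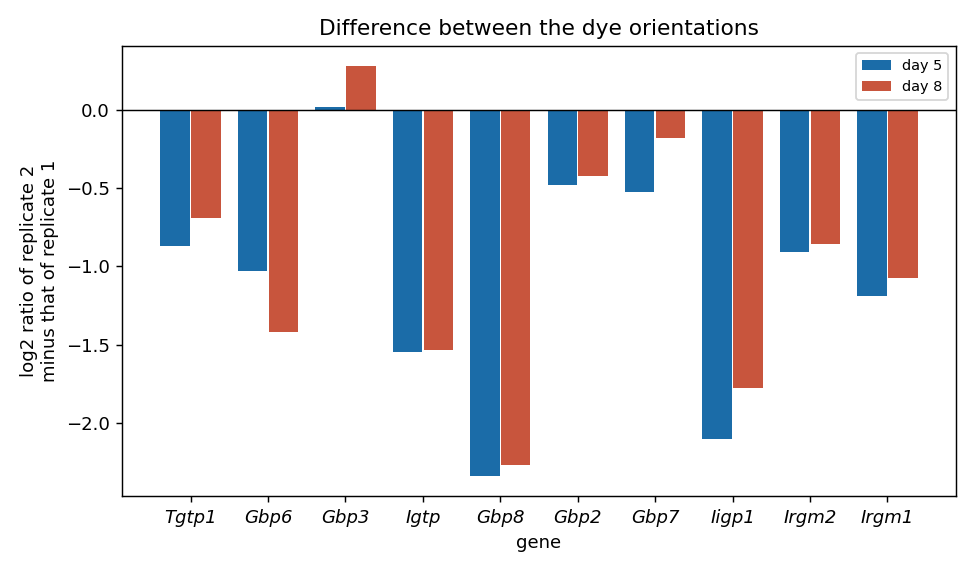
Log2 ratio of replicate 2 (treated pool in Alexa 555) minus that of replicate 1 (treated pool in Alexa 647) for each gene, at day 5 in blue and day 8 in red. Gbp8 and Iigp1 reach furthest below 0, the 2 days give like values, and Gbp3 alone lies above 0.

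Calls at a single day depended on which arrays were kept. Without day 5 replicate 2, 4 of 10 members fell at day 5 (Gbp2, Gbp3, Gbp7 and Tgtp1), and Gbp6, Gbp8, Igtp, Irgm1, Irgm2 and Iigp1 did not pass (adjusted p from 0.0679 to 0.186), with Irgm1 at -1.89 and Iigp1 at -2.08. Without day 8 replicate 2 the same 4 fell at day 8, and the other 6 did not pass (adjusted p from 0.0528 to 0.256). Without replicate 1 of a day, Gbp8 and Iigp1 did not pass on that day (adjusted p of 0.0517 and 0.0516 at day 5, 0.0602 and 0.0751 at day 8). Over both days all 10 fell whichever array was left out. With median centring in place of loess none of the 10 passed at either day (smallest adjusted p = 0.0556), and 5 (Gbp2, Gbp3, Gbp6, Gbp7 and Tgtp1) fell over both days, while every mean ratio stayed at -2.52 or lower.

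The rest of both families was described from a list of 17 further GBP, IRG and related genes, of which 9 were measured. Over both days 8 of the 9 fell, against 16.3% of all genes, with a median of -2.38. Gbp4 fell by 3.69 (SE 0.28, adjusted p = 0.00231), with ratios of -3.12, -4.31, -3.07 and -4.26 on the 4 arrays. Gbp9 fell by 3.19 and the effector IRG Ifi47 (Irgd) fell by 2.99. Irgc1, an IRG known from mouse testis and not induced by interferon, was the exception, with ratios of 0.15, -0.07, 0.14 and 0.06 (mean 0.07, SE 0.06, adjusted p = 0.441), and its probe was well above background in 5 of 8 channel readings.

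Large GTPases that are not known for induction by interferon, listed together with the EHD ATPases, gave a different picture. Of 14 dynamin, mitofusin, atlastin and EHD genes 4 fell and 1 rose over both days, against 16.3% and 14.8% of all genes, and their median was -0.05. The EHD ATPases Ehd4 and Ehd2 fell by 0.79 and 0.48, the mitochondrial fusion GTPase Mfn2 fell by 0.38, and Ehd3 rose by 0.60 (SE 0.06, adjusted p = 0.00436).

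Among the genes of the interferon gamma pathway itself, the ligand and receptor chains had mean ratios nearer 0 than Irf1 and Socs1, with no test between genes. Ifng, the cytokine, had ratios of -0.42, -0.15, -0.44 and -0.37 on the 4 arrays, and fell by 0.35 over both days (SE 0.07, adjusted p = 0.0187). The receptor chain Ifngr1 had a mean of 0.05 (adjusted p = 0.617), and Ifngr2 fell by 0.41. The transcription factor Irf1 fell by 1.41 (SE 0.24, adjusted p = 0.0151) and Socs1, a feedback inhibitor of the receptor's kinases, fell by 1.97. Ifng, Irf1 and Socs1 did not pass at either day alone (adjusted p = 0.105, 0.0569 and 0.0909 at day 5). Of 20 measured pathway genes 12 fell over both days and none rose, against 16.3% and 14.8% of all genes. Their median was -0.49, and Pias1, a SUMO ligase, had the highest mean, 0.08.

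Other targets of interferon gamma fell in 22 of 24 cases over both days, against 16.3% of all genes, with a median of -1.35. The chemokines Cxcl9 and Cxcl10 fell by 3.84 each and the checkpoint ligand Cd274 fell by 2.71, whereas the tryptophan-degrading enzyme Ido1 had a mean of 0.06. Genes of the type I antiviral response fell in 24 of 25, with a median of -2.23, among them Ifit1 (-4.75), Ifi44 (-4.18) and Oasl2 (-3.73). Oas1g was well above background in 0 of 4 treated and 3 of 4 control readings, so no exact value is given for it. On the replicate 2 minus replicate 1 difference these lists had medians of -0.33 and -0.13, and for Oasl2 and Ifi44 replicate 2 was the higher array on both days.

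The machinery that IRG and GBP proteins work with was described as 2 lists. Over both days 16.3% of all genes fell and 14.8% rose. Of 19 genes of autophagy and GTPase targeting 8 fell and none rose over both days, with a median of -0.24. Map1lc3b, an LC3 protein that marks autophagosomes, fell by 1.77 (SE 0.07, adjusted p = 0.000812), the kinase Ulk1 by 0.98 and the ubiquitin ligase Trim21 by 0.82, and the related Map1lc3a had a mean of 0.22 (adjusted p = 0.124). Of 12 inflammasome and cell death genes, on which GBPs act when bacteria enter the cytosol, 8 fell and none rose, with a median of -0.44. The adaptor Pycard fell by 1.24, the lipopolysaccharide sensor Casp4 by 1.17 and Casp1 by 1.02, and Irf3 had a mean of 0.03.

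**Figure D5:**
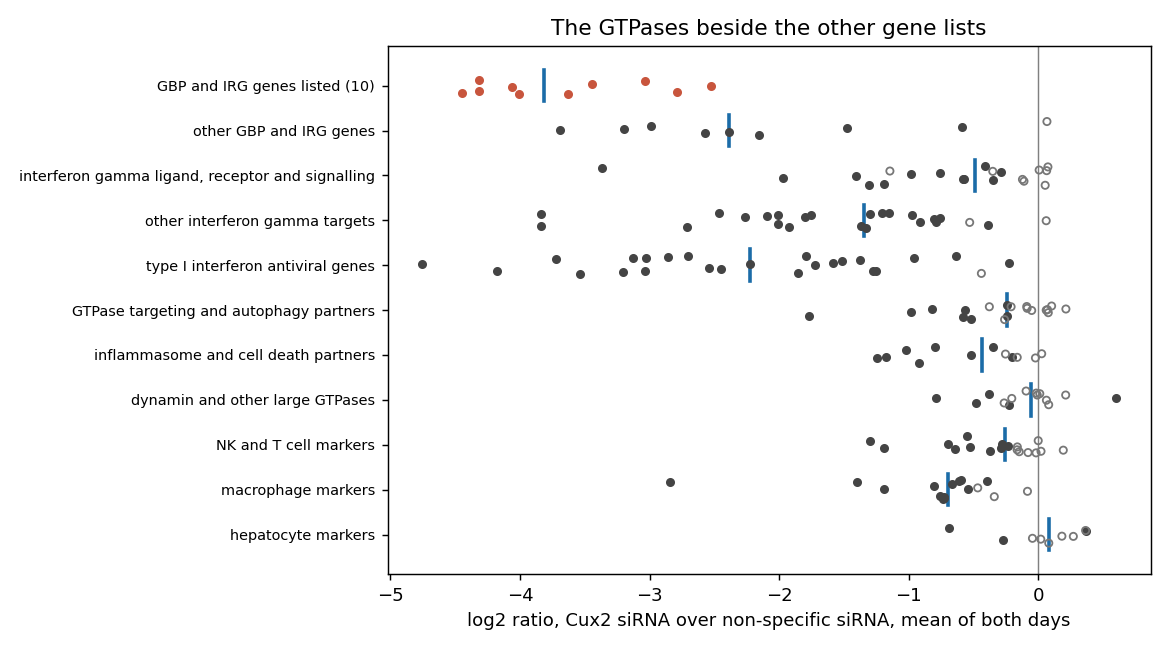
Mean log2 ratio over both days of each measured gene in the 10 members (red) and in the other lists (dark), with filled points for genes with an adjusted p under 0.05, open points for the rest and a blue bar at the list's median. The 10 members have a median of -3.82, the other GBP and IRG genes of -2.38 and the dynamin group of -0.05.

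Markers of immune cells that can hold or raise these GTPases were measured beside them over both days, where 16.3% of all genes fell and 14.8% rose. Of 18 measured NK and T cell markers 10 fell, with a median of -0.26, and their summed normalised level was 4139 to 4582 in the treated pools, against 5781 to 6927 in the control pools. Of 16 macrophage markers 13 fell, with a median of -0.69, and their summed level was 62086 to 102723 in the treated pools, against 135266 to 143557 in the control pools. Of 9 neutrophil markers 6 fell, with a median of -0.56, and the sums were 2248 to 3852 in the treated pools, against 12423 to 17538 in the control pools. These 9 were uneven: S100a8 (-2.41) and S100a9 (-2.50) fell furthest, whereas Camp (0.02), Ltf (-0.10) and Ngp did not pass. Mmp8, counted among the 6, was well above background in 0 of 4 treated readings. Endothelial markers summed to 59756 to 64442 in the treated pools, against 57215 to 61748 in the control pools, and overlapped, while 4 of the 12 fell and 3 rose (median -0.04). Among markers of resident liver macrophages Clec4f (-0.39), Cd5l (-0.73), Timd4 (-0.80) and Marco (-2.84) fell, whereas Vsig4 had a mean of -0.08 (adjusted p = 0.39). Among lymphocyte markers Klrk1 (-0.70), Gzma (-1.30) and the T cell genes Cd3d (-0.23) and Lck (-0.28) fell. The T cell gene Cd3e (-0.08, adjusted p = 0.437) and the NK cell genes Klrb1c (0.02) and Tbx21 (-0.15) did not pass. Of 11 stellate cell markers 7 fell and 3 rose (median -0.80), and of 13 exocrine pancreas markers 6 fell and none rose (median -2.60). On the day 8 replicate 1 array 11 of the 13 pancreas markers had ratios above 0, against 0 of 13 on each other array, and 1 of 13 fell at day 5 and 1 at day 8. On that array the 10 GTPases had a median ratio of -3.41, between those of the other arrays. The macrophage markers measured were well above background in every reading. The part of these cells in the fall of the GTPases was not tested.

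Among the genes whose 4 ratios lay nearest to the array-by-array median of the 10 members (-3.12, -4.17, -3.41 and -4.09) were Gbp4, Cxcl10, Saa2, Rsad2, Serpina3f, Orm2 and Saa3. The measure was the Euclidean distance over 4 arrays, which was 0.406 for Gbp4, 0.51 for Cxcl10 and 0.812 for Saa3, and 0.47 to 2.37 for the members themselves. Gbp4, Cxcl10 and Rsad2 are interferon-induced genes, and Saa2, Saa3 and Orm2 encode acute phase proteins. Over both days Rsad2 fell by 3.53, with ratios of -3.35, -3.72, -3.36 and -3.71, and Saa2 fell by 3.50, with ratios of -2.90, -4.03, -2.93 and -4.15.

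The promoter elements were counted in the comparison lists in the same way. An ISRE core stood in 13 of 19 type I antiviral genes with a promoter in the table and in 4 of 17 other interferon gamma targets. It stood in 2 of 5 further GBP and IRG genes and in 0 of 13 genes of the dynamin and EHD list, against 3.99% of all genes. The form with CT in the middle stood in 6 of the 19 type I genes and in 0 of the 13 dynamin and EHD genes, against 0.263% of all genes. With shares this low over all genes, 0 of 13 does not set that list apart. Both an ISRE and a GAS core stood in 4 of 7 members and in 3 of the 19 type I genes, against 0.54% of all genes. These counts describe the letters of the windows, and no binding was measured.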

How the data were processed

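Liver RNA pools were measured on 4 Agilent 2-colour arrays. Per the file headers, Agilent's Feature Extraction software (version 10.7.1.1) read the scans. The intensity values used are the deposited median spot and local background signals, as scanned. The deposited processed intensity values, which per the file headers were background-subtracted and dye-normalised, were used as an alternative. The value table deposited by the authors holds log10 ratios, which equalled the scanner's log10 ratios within 1e-05 once turned to treated over control, and each column had a median of 0. The deposited scanner p-value of each spot entered no test. Ratio directions follow the dyes in the labels.

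Log2 ratios were derived from these deposited intensities in R 4.3.3 (limma 3.58.1): normexp with an offset of 50, loess with control spots at weight 0, outlier spots (99 to 204 per array) left out, and spots averaged per probe. Channel levels (log2) are the mean intensity of both channels after Aquantile scaling, plus or minus the loess log2 ratio divided by 2. Summed levels add these after turning them back from the log2 scale. Probes were named through RefSeq accessions (GRCm38.p6); 23374 of 41174 (56.8%) matched. Probes well above background in at least 2 of 8 readings were kept (31765), and the brightest kept probe stood for a gene. Residual degrees of freedom were 2, with 2.78 added by the prior, so the number of arrays limits precision. The p-values measure the spread between arrays of a day, in which treated pool, dye orientation and possibly control pool are mixed. The 4 arrays drew on 2 control pools, while the fit treats the arrays as independent. The fit was tested on simulated data. Named genes are the 10 members, Cux2, the 3 lowest and the highest of each pathway list, a few pathway genes (Ifng, Ifngr1, Ifngr2, Irf1) and the 8 nearest genes, except 1 gene that is not reported here; Alb and the cell markers were named after their values were seen. Members and lists were chosen with earlier results of these data known.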

Additional observations from a re-analysis of the deposited data

How the results depend on the processing

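All 10 members had negative log2 ratios at day 5, at day 8 and over both days under all 12 alternatives, and 298 of those 360 values stayed past the threshold. Many of these signs could not turn. Every member was negative on each array, so leaving out an array could not change a sign. The changes of the low-signal filter and the replicate block left the members' ratios as they were. The scanner's processed signals and the authors' deposited log ratios gave the members nearly the same ratios. Median centring left 0 members passing at day 5, 0 at day 8 and 5 over both days, with 5, 3 and 269 of all genes. The scanner's processed signals left 2011 genes at day 5 and 1476 at day 8, and the authors' deposited log ratios 2000 and 1468, with 7 of 10 members on each day in both cases. Without background subtraction 6 members passed at day 5 and 6 at day 8, and 2118 genes at day 8. With the replicate number as a block 8228 genes passed at day 5 and 7451 at day 8, and the calls of the members were as in the fit without it. The deviations of same-numbered arrays from their day means correlated across genes (r = 0.5), but the number is the dye orientation, so a shared number is no proof of pairing. Leaving out 1 array at a time gave 4 to 10 members at day 5, 4 to 10 at day 8 and 10 over both days. The genes passing then ranged from 239 to 3605 at day 5, from 137 to 2473 at day 8 and from 3880 to 5504 over both days. An array left alone at its day is assumed to vary like the other day's pair. Without a low-signal filter Iigp1 missed the threshold at day 8 (adjusted p = 0.0536). The cause of these changes was not tested. Intervals for the difference between days were wide where the dye orientations differed, as for Gbp8 and Iigp1.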
